A study of Mus musculus with 3 samples.

Results

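The genes described here are 44 that copy the genome or carry out mitosis, chosen by name: a probe set belongs to them when the platform annotation gives it 1 gene and that gene is on the list. The list was chosen with earlier results of these data known, so member counts beside shares of all genes are no test. The arrays held 105 such probe sets for 43 of the genes, of 34945 probe sets with 1 gene for 18193 genes in all. Ccnb1 had no probe set with a gene of its own in the annotation used and was not analysed here. RNA came from the gastrocnemius muscle of mice of strain C57BL/CD1 and genotype Akt_Cre transgenic. Per the labels, all of these mice, the oil controls included, make in skeletal muscle a fusion of the kinase Akt with an oestrogen-binding domain, which tamoxifen stabilises, and their muscle then grows. The groups were tamoxifen for 24 h, tamoxifen for 48 h and oil for 24 h, each 1 Affymetrix Mouse 430 2.0 array of RNA pooled from 3 to 4 mice. Neither a 48 h oil array nor tamoxifen given to mice without the fusion was used here, so treatment and time cannot be told apart at 48 h, nor can Akt and other actions of tamoxifen at either time. The ages of the mice and the promoter that drives the fusion are not given in the sources used here.

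A cell that divides first loads the MCM helicase on its origins in G1, helped by Cdc6 and Cdt1. Cyclin D with Cdk4, then cyclin E with Cdk2, inactivate the retinoblastoma protein and free E2F factors, which switch on the genes of DNA synthesis. Cyclin B with Cdk1 then starts mitosis, the spindle checkpoint holds sister chromatids together until all are attached, and the anaphase-promoting complex destroys securin to let them part. Muscle fibres are filled with nuclei that have left the cell cycle, so most division in a muscle is by the other cells between and on the fibres, such as satellite cells, blood vessel cells and immune cells.

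Many of these genes, though not all, share promoter elements, and those elements are shown first because they are read independently of the arrays. Of the 44 genes, 35 had a RefSeq promoter window of 300 bases (build GRCm38.p6), from 250 before to 50 after the start. The CCAAT box (CCAAT, either strand) was in 24 of 35 windows (68.6%), against 37.9% of the windows of all 27025 genes and 39.0% of protein-coding genes. The CHR element (TTTGAA or TTCGAA, either strand), which the DREAM and FoxM1 complexes use at late cell-cycle genes, was in 13 of 35 (37.1%), against 19.4% of all windows. Every one of those 13 also held a CCAAT box, a pair found in 7.70% of all windows. An E2F element (TTTCGCGC, TTTGGCGC or TTTCCCGC, either strand; these can overlap on opposite strands) was in 9 of 35 (25.7%), against 1.91% of all windows. The TATA box (TATAAA, either strand) was in 0 of 35, against 14.2% of all. The windows of Tk1, Tyms, Ccnd3, Cdk4, Ccne1, E2f1, Mad2l1, Pttg1 and Birc5 held none of these elements.

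The elements differed in number between roles. Of the 7 licensing and helicase genes with a window, 6 held an E2F element and 2 a CHR element, whereas of the 13 genes with a window in the checkpoint, spindle and chromosome groups, 9 held a CHR element and 0 an E2F element. Among the 7 DNA synthesis genes 1 held an E2F element and 0 a CHR element, and the Cdk1 window held both kinds. The 120 bases before the start are printed for the 2 members that differed most between arrays, Pttg1 and Gas2l3, and for Cdk1, the mitotic kinase, and Mcm6, a helicase subunit. All 4 are on the minus strand and read 5′ to 3′, with the elements searched in capitals. On the strand printed, each CCAAT box is seen as its complement, ATTGG. Their positions are chr11:43425982-43426101 for Pttg1, chr10:89443968-89444087 for Gas2l3, chr10:69352913-69353032 for Cdk1 and chr1:128359706-128359825 for Mcm6.
Pttg1: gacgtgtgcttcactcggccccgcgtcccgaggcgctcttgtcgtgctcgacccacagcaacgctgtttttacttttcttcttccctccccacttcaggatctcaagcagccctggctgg
Gas2l3: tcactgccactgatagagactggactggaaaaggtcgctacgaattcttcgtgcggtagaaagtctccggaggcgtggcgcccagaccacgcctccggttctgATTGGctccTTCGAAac
Cdk1: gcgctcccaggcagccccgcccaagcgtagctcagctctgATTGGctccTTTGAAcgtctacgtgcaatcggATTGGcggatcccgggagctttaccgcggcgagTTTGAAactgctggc
Mcm6: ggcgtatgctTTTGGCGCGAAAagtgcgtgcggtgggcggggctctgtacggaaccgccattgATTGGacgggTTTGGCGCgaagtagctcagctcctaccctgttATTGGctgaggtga
In both Gas2l3 and Cdk1, ATTGG stood 4 bases before a CHR element. This spacing, noticed in these printed stretches and then counted, was in 3 member windows (Gas2l3, Cdk1 and Top2a) and in 18 of the 27025 windows in all. The Pttg1 window held none of the elements searched, which says only that these letters are not in it.

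The deposited values are intensities on a linear scale. Each group is a single array, so replicate error is unknown, no test between groups was possible and no p-value is given. A value is called higher or lower here when it differs by 2-fold or more. Before scaling, the median probe set read 13.2 at tamoxifen 24 h, 13.7 at tamoxifen 48 h and 15.1 for oil. Intensities below are scaled so that the arrays share 1 median over the brighter probe sets, those with a mean percentile rank of 50 or more, and ratios are taken on these kept probe sets with a floor of 4.05 intensity units. Muscle identity was as labelled: the fibre markers Ckm, Acta1, Myh4, Myh1, Tnnt3, Pvalb, Mylpf and Actn3 all had kept probe sets, and none of the 8 was 2-fold different in any comparison.

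Taken as a family, these genes read dim in this muscle. Of 105 member probe sets, 49 lay above the array's own median at tamoxifen 24 h (46.7%), 44 at tamoxifen 48 h (41.9%) and 47 for oil (44.8%). Among all probe sets with 1 gene the shares were 57.2% at tamoxifen 24 h, 56.6% at tamoxifen 48 h and 56.6% for oil, so the members lay below other named genes on each array, with a median percentile rank of 45.1 against 56.1. By gene, 22 of the 43 had a probe set above the median on all 3 arrays, and 13 had none above it on any array. The same counts over all genes were not made, so these do not show how the members compare with other genes. A probe set's brightness also depends on its probes, so a dim reading does not by itself give a low RNA level. In bulk RNA, fewer dividing cells and less RNA per cell cannot be told apart.

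Role by role, the G1 genes read brightest and the genes of mitosis dimmest. The G1 cyclins with their kinases and E2f1 had a median percentile rank of 65.0, and 15 of their 24 probe sets were kept. Licensing and helicase genes had a median of 47.8 with 11 of 25 kept, and DNA synthesis genes 44.6 with 7 of 16. The mitotic kinase and spindle genes had a median of 29.0 with 2 of 14 kept, the chromosome and kinetochore group 31.2 with 4 of 10, and the checkpoint group 35.04 with 4 of 12. None of the 4 probe sets of Ccna2, Ccnb2 and Cdk1 was kept. In all, 43 of 105 member probe sets were kept (41.0%, against 55.4% of all probe sets with 1 gene), from 24 genes. The values nearest the filter were those of Rrm2 (percentile 50.3) and Cenpk (50.3) just inside, and of Tpx2 (49.9) and Ccne1 (49.6) just outside.

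**Figure D1:**
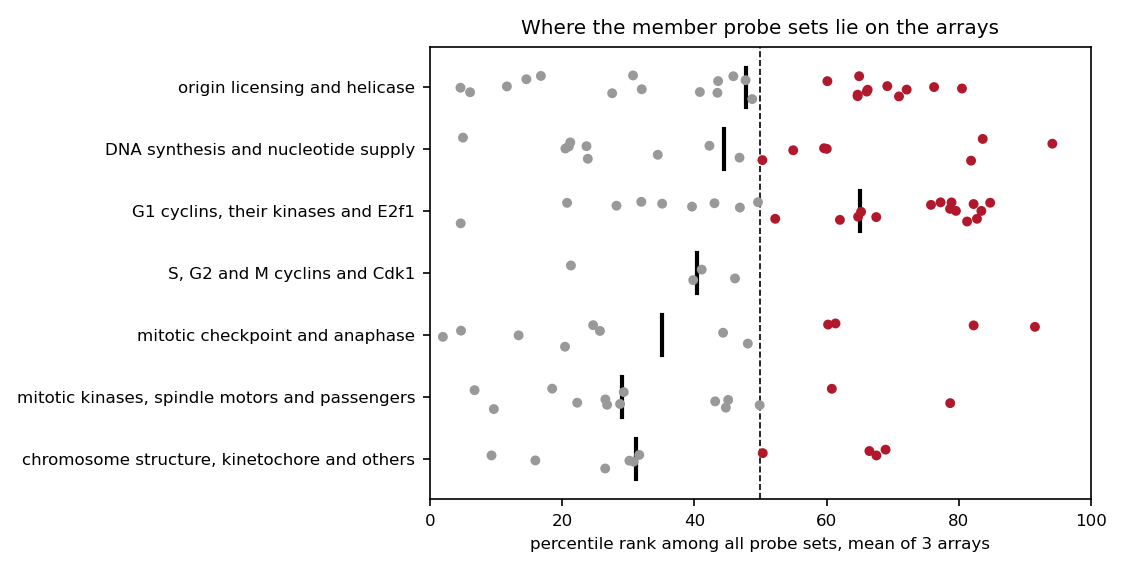
Each point is 1 of the 105 member probe sets, placed by its percentile rank among all probe sets averaged over the 3 arrays (horizontal axis) and by role (rows). Red points passed the rank filter at 50 (dashed line), grey points did not, and black bars are medians, from 29.0 in the mitotic kinase and spindle row to 65.0 in the G1 row.

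The first comparison asks what 24 h of tamoxifen did against time-matched oil. Pttg1, which encodes securin, was the one member far above oil, and the cytoskeleton linker Gas2l3 was the one far below it. Of the 24 genes with a kept probe set, 2 were 2-fold or more higher at tamoxifen 24 h, Mcm2 and Pttg1, against a background of 2.35% of all 11092 genes compared. Another 5 were 2-fold or more lower, Mcm4, Tk1, Ccne2, Cenpk and Gas2l3, against a background of 2.48%. Because the members were chosen with earlier results of these data known, these counts cannot be read as an excess over the background. Cenpk lay above the array median on the oil array alone, so it passed the rank filter through the array it was then set against. All 5 lower members were among the 14 of middling brightness (mean rank under 75, a band chosen after seeing the data), where 4.80% of all genes were lower and 3.37% higher. The 24 had a median log2 ratio of -0.28, against 0.04 for all genes, and 17 of 24 ratios were below 1, against 46.0% of all genes. The number called lower depended on the scaling: it was 2 (Mcm4 and Gas2l3) with the deposited values unscaled, and the same 2 after quantile normalization, when Tk1, Ccne2 and Cenpk came within 2-fold. With unscaled values, which move the median of all genes to 0.13, 13 of the 24 ratios were below 1, against 37.1% of all genes.

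Set against the same oil array, tamoxifen for 48 h gave another short list. Pttg1 was again higher, together with Mad2l1, a spindle checkpoint protein: 2 of 24 against a background of 3.72%. Ccne2, a cyclin E, and Tpx2, a spindle assembly factor, were lower: 2 of 24 against 2.71%. In the band of middling brightness 1 of 14 members was higher and 2 lower, against 4.80% and 4.76% of genes. The median log2 ratio was -0.29, against 0.01 for all genes, and 16 of 24 ratios were below 1, against 49.4%. Both comparisons share the oil array, so a gene with an unusual oil reading would appear in both.

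Between the tamoxifen arrays, 48 h over 24 h, Gas2l3 was higher (1 of 24, background 1.80%) and Tpx2 lower (1 of 24, background 1.42%). Both lie in the band of middling brightness, where 3.39% of genes were higher and 2.91% lower. The median log2 ratio of the members was 0.04, against -0.02 for all genes, and 12 of 24 ratios were below 1, against 53.1%. On 4 members a single array stood 2-fold or more apart from both others. Gas2l3 was low at tamoxifen 24 h (background 0.649%), Tpx2 low at tamoxifen 48 h (0.712%), Ccne2 high on oil (0.721%) and Pttg1 low on oil (1.59%). No member was high at tamoxifen 24 h alone (0.144%) or tamoxifen 48 h alone (0.577%).

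**Figure D2:**
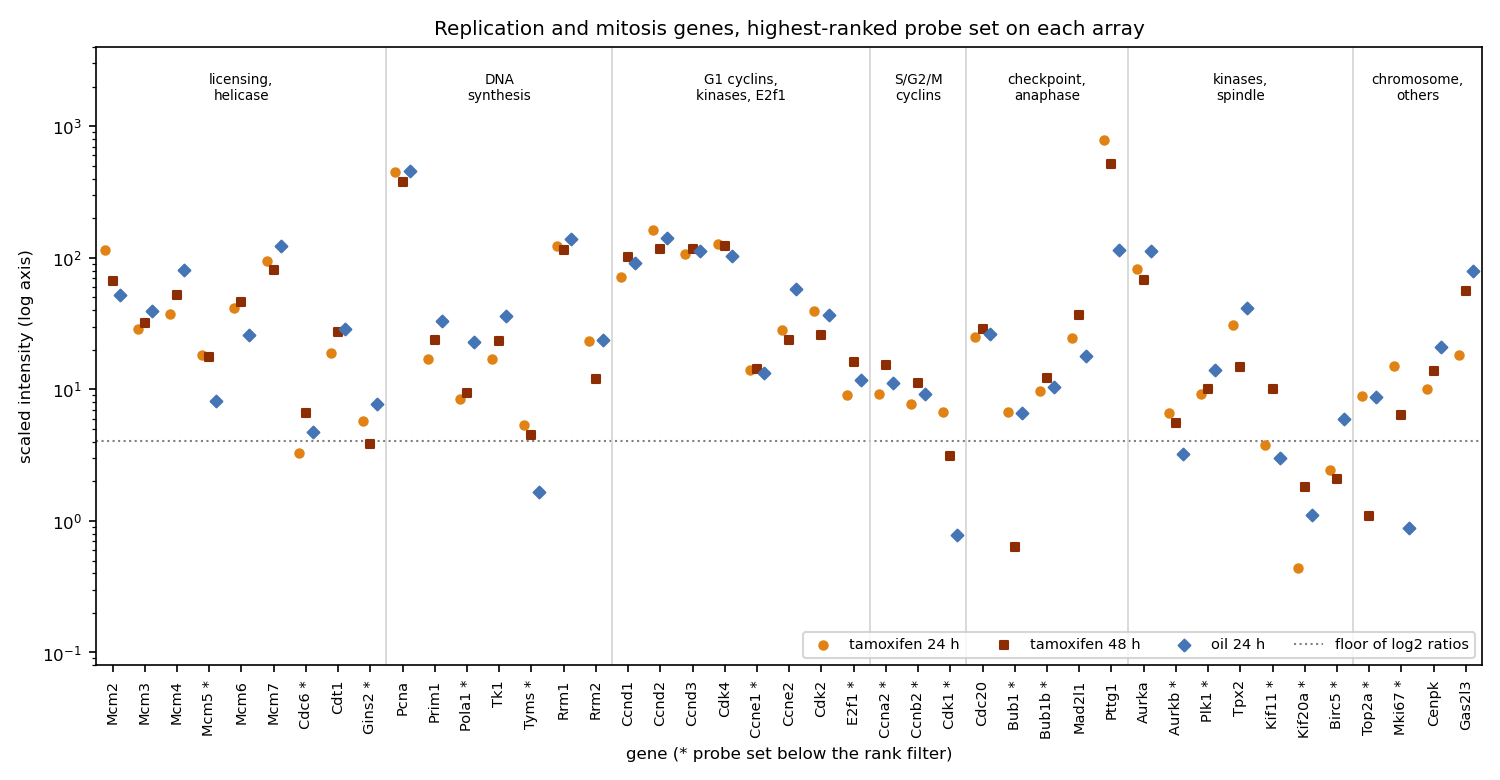
For each of the 43 genes with a probe set, grouped by role along the horizontal axis, points show the scaled intensity (log axis) of its highest-ranked probe set on the 3 arrays. An asterisk marks genes without a kept probe set and the dotted line is the floor of 4.05. Points under that line are drawn as read, without the floor. Pttg1 reads 783 and 516 on the tamoxifen arrays and 115 on the oil array.

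Pttg1 read 783 at tamoxifen 24 h, 516 at tamoxifen 48 h and 115 on oil on its brightest probe set, which makes it 6.81-fold and 4.49-fold higher than oil. Its other kept probe set read 238 at tamoxifen 24 h, 218 at tamoxifen 48 h and 40.9 on oil, 5.81-fold and 5.32-fold higher. Both probe sets thus had the tamoxifen arrays well above the oil array. Another one, below the filter, read 3.63 at tamoxifen 24 h, 1.45 at tamoxifen 48 h and 9.11 on oil, with both tamoxifen values under the floor. Securin blocks separase, the protease that cuts the cohesin rings between sister chromatids, and is itself destroyed at anaphase. Its partners in the checkpoint and anaphase group did not stand as far from oil. Cdc20, which directs the anaphase-promoting complex to securin, read 24.96 at tamoxifen 24 h, 29.0 at tamoxifen 48 h and 26.3 on oil. Mad2l1, which holds Cdc20 in check, read 24.6 at tamoxifen 24 h, 37.0 at tamoxifen 48 h and 17.9 on oil, so that it was 2.07-fold higher at 48 h on its single probe set. The checkpoint kinase Bub1 and its relative Bub1b had no kept probe set; their 5 probe sets ran from 0.20 to 12.2 over all 3 arrays.

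Gas2l3 encodes a protein that links actin to microtubules and acts in cytokinesis. Its chosen probe set read 18.1 at tamoxifen 24 h, 56.4 at tamoxifen 48 h and 79.1 on oil, 4.37-fold lower than oil at 24 h. Its lowest-ranked kept probe set read 14.3 at tamoxifen 24 h, 52.4 at tamoxifen 48 h and 67.5 on oil, 4.71-fold lower at 24 h. Both put the 24 h array alone at the low end, with 48 h near oil. The remaining kept probe set, second by mean rank, differed less, at 31.9 at tamoxifen 24 h, 40.2 at tamoxifen 48 h and 48.3 on oil (1.52-fold lower at 24 h). All 3 therefore ordered the arrays alike, but by sizes that differ. The CCAAT and CHR pair at the 4-base spacing printed above for Gas2l3 also stands in the windows of Top2a and Cdk1. Those genes had no kept probe set with which to compare Gas2l3. Other members with both elements, at any spacing, and a kept probe set were Mcm2, Mcm7, Cdc20 and Aurka. Their log2 ratios at 24 h were 1.13, -0.38, -0.08 and -0.45.

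**Figure D3:**
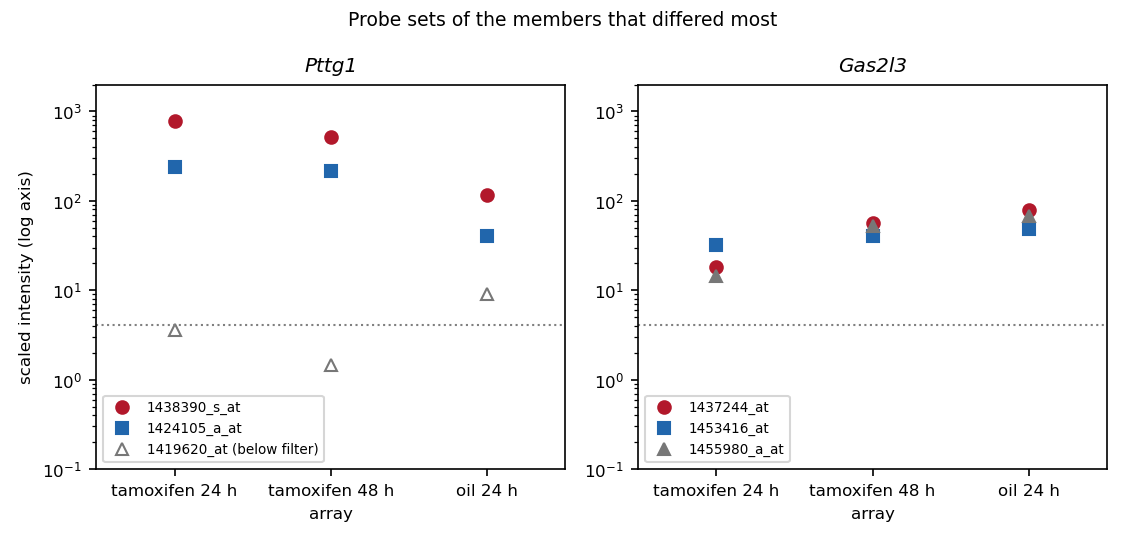
Scaled intensity (log axis) of every probe set of Pttg1 (left) and Gas2l3 (right) on the tamoxifen 24 h, tamoxifen 48 h and oil 24 h arrays; the open symbol is a probe set below the rank filter and the dotted line is the floor. The 2 kept Pttg1 probe sets lie higher on both tamoxifen arrays than on oil, and 2 of the 3 Gas2l3 probe sets lie over 4-fold lower at tamoxifen 24 h than on oil, and 3.12-fold and 3.66-fold lower than at tamoxifen 48 h.

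The licensing and helicase genes did not read alike. The 6 MCM proteins form a single ring, the replicative helicase, yet Mcm2 read 114 at tamoxifen 24 h, 66.3 at tamoxifen 48 h and 52.0 on oil (2.19-fold higher at 24 h), while Mcm4 read 37.3 at tamoxifen 24 h, 51.7 at tamoxifen 48 h and 80.5 on oil (2.16-fold lower at 24 h). The Mcm2 call rested on 1 probe set, since the other kept one read 27.8 at tamoxifen 24 h, 46.1 at tamoxifen 48 h and 29.7 on oil, with a log2 ratio of -0.10 at 24 h. For Mcm4 both kept probe sets were below oil at both times, with log2 ratios of -1.11 and -0.80 at 24 h and of -0.64 and -1.07 at 48 h. Mcm7 had 4 kept probe sets, all below oil at both times, from -0.9997 to -0.31 in log2 at 24 h and from -0.78 to -0.50 at 48 h. Its brightest read 94.8 at tamoxifen 24 h, 81.0 at tamoxifen 48 h and 123 on oil.

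Mcm6 lay on the other side of oil, at 41.5 at tamoxifen 24 h, 46.2 at tamoxifen 48 h and 26.0 on oil (1.60-fold and 1.78-fold higher), and Mcm3 read 28.6 at tamoxifen 24 h, 32.1 at tamoxifen 48 h and 39.1 on oil. No kept probe set represented Mcm5, whose 3 probe sets disagreed: the brightest read 18.1 at tamoxifen 24 h, 17.5 at tamoxifen 48 h and 8.21 on oil, and the next 11.8 at tamoxifen 24 h, 6.12 at tamoxifen 48 h and 15.5 on oil. Cdt1, the loader of the helicase, read 18.8 at tamoxifen 24 h, 27.2 at tamoxifen 48 h and 28.9 on oil. Its fellow loader Cdc6 and Gins2, a subunit of the active helicase, were dim on every array, with readings of 7.72 or less. Over the 6 licensing genes compared, the median log2 ratio was -0.42 at 24 h and -0.19 at 48 h.

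DNA synthesis genes stayed mostly within 2-fold. Pcna, the sliding clamp of the DNA polymerases, read 449 at tamoxifen 24 h, 375 at tamoxifen 48 h and 454 on oil, the smallest ratio of the group at 24 h (1.01-fold lower). Rrm1, the large subunit of ribonucleotide reductase, which makes deoxynucleotides, read 123 at tamoxifen 24 h, 115 at tamoxifen 48 h and 140 on oil, and its other kept probe set followed within 1.15-fold of oil. Pcna and Rrm1 also serve DNA repair, outside S phase. The small subunit Rrm2, made mainly in S phase, read 23.3 at tamoxifen 24 h, 12 at tamoxifen 48 h and 23.9 on oil, 1.99-fold lower at 48 h. The second kept Rrm2 probe set was 1.55-fold lower at 48 h.

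Tk1, a thymidine kinase of S phase, read 17.1 at tamoxifen 24 h, 23.3 at tamoxifen 48 h and 36.4 on oil, 2.13-fold lower at 24 h and 1.56-fold lower at 48 h. Prim1, the primase that starts each DNA strand, had the same order, at 17.1 at tamoxifen 24 h, 23.7 at tamoxifen 48 h and 33.0 on oil (1.93-fold and 1.39-fold lower). Pola1, the polymerase that works with primase, had its brighter probe set just under the filter at 8.38 at tamoxifen 24 h, 9.44 at tamoxifen 48 h and 23.1 on oil. The order of oil above tamoxifen 48 h above tamoxifen 24 h on these probe sets was not that of a dimmer Prim1 probe set, which read 8.61 at tamoxifen 24 h, 4.38 at tamoxifen 48 h and 8.11 on oil. Tyms, thymidylate synthase, had 4 probe sets that reached no more than 6.32 on any array. A further probe set, which the annotation gives to both Tyms and its pseudogene Tyms-ps and which is not counted here, read 13.5 at tamoxifen 24 h, 19.5 at tamoxifen 48 h and 11.4 on oil.

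**Figure D4:**
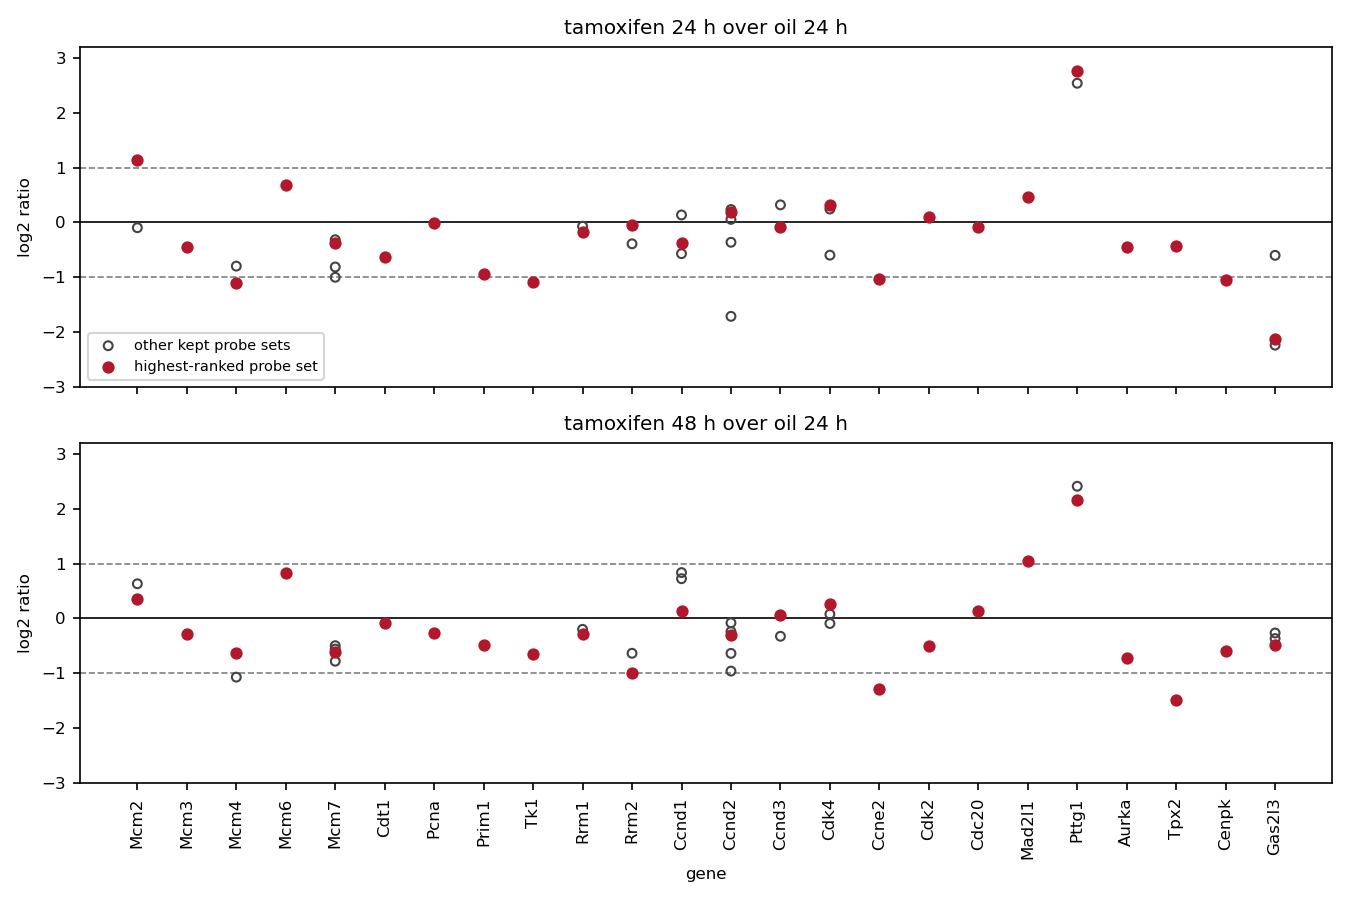
Log2 ratios over the oil array at tamoxifen 24 h (top) and tamoxifen 48 h (bottom) for the 43 kept probe sets of 24 genes; filled points are the highest-ranked probe set of each gene, open points its other kept probe sets, and dashed lines mark 2-fold. Most points lie between the dashed lines, Pttg1 lies above 2 in log2 in both panels, and Ccnd2 and Gas2l3 show probe sets of 1 gene that differ by over 1.5 in log2 at 24 h.

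The D-type cyclins, through which growth signals reach the cell cycle, were among the brighter members and none of the 3 was called. Ccnd1 read 70.9 at tamoxifen 24 h, 101 at tamoxifen 48 h and 91.9 on oil. Its 3 kept probe sets were all above oil at 48 h, by log2 ratios from 0.14 to 0.84, and all above tamoxifen 24 h at 48 h, by 0.51 to 1.41. Ccnd2 read 163 at tamoxifen 24 h, 116 at tamoxifen 48 h and 142 on oil. Its 5 kept probe sets ran from -1.71 to 0.24 in log2 at 24 h, and all were below oil at 48 h (-0.96 to -0.08). Ccnd3, the D cyclin linked to muscle differentiation, read 107 at tamoxifen 24 h, 117 at tamoxifen 48 h and 113 on oil. Its other kept probe set, dimmer, read 20.1 at tamoxifen 24 h, 12.8 at tamoxifen 48 h and 16.1 on oil.

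Cdk4, the kinase partner of these cyclins, read 128 at tamoxifen 24 h, 123 at tamoxifen 48 h and 103 on oil, and its 3 kept probe sets ran from -0.60 to 0.31 in log2 at 24 h. Cdk2, the partner of cyclin E, read 39.6 at tamoxifen 24 h, 25.9 at tamoxifen 48 h and 36.7 on oil. Ccne2 read 28.5 at tamoxifen 24 h, 23.8 at tamoxifen 48 h and 58.3 on oil on its single probe set, 2.05-fold and 2.44-fold lower, so the oil array alone was high. The other cyclin E gene, Ccne1, had a probe set just under the filter that read 13.97 at tamoxifen 24 h, 14.2 at tamoxifen 48 h and 13.4 on oil. Its dimmer probe set differed, at 2.62 at tamoxifen 24 h, 5.67 at tamoxifen 48 h and 11.9 on oil. E2f1, an activator of S-phase genes, had 3 probe sets below the filter. The brightest read 9.10 at tamoxifen 24 h, 16.2 at tamoxifen 48 h and 11.8 on oil. The next read 0.98 at tamoxifen 24 h, 4.68 at tamoxifen 48 h and 13.3 on oil. The dimmest read 7.36 at tamoxifen 24 h, 1.10 at tamoxifen 48 h and 1.59 on oil, so the 3 disagreed.

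Several classic markers of dividing cells read low, unlike Pttg1 or Aurka. Cdk1, which drives entry into mitosis, read 6.69 at tamoxifen 24 h, 3.10 at tamoxifen 48 h and 0.78 on oil, with only the 24 h reading above the floor. Mki67, the gene of the proliferation antigen Ki-67, read 15 at tamoxifen 24 h, 6.36 at tamoxifen 48 h and 0.88 on oil, on a single probe set below the filter; with the oil reading under the floor it was at least 3.71-fold higher at 24 h, and 1.57-fold or more at 48 h. Top2a, which untangles DNA before chromosomes part, had 3 probe sets that disagreed: 1 read 8.86 at tamoxifen 24 h, 1.09 at tamoxifen 48 h and 8.72 on oil, another 4.55 at tamoxifen 24 h, 9.28 at tamoxifen 48 h and 1.16 on oil. Readings this near the floor give no order of the arrays. The S-phase and mitotic cyclins Ccna2 and Ccnb2 had 3 probe sets that ran from 5.10 to 15.3 over the 3 arrays.

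Kif11 encodes the motor that pushes spindle poles apart, and its probe sets were dim. Its 3 probe sets read 3.76, 0.93 and 4.01 at tamoxifen 24 h, against 10.02, 11.9 and 13.8 at tamoxifen 48 h and 3.01, 4.16 and 0.49 on oil. The readings above the floor were those at 48 h and 1 on oil, at 4.16. None of the probe sets passed the filter, so Kif11 is not among the genes counted. Tpx2, which activates Aurora A on the spindle, read 30.6 at tamoxifen 24 h, 14.8 at tamoxifen 48 h and 41.4 on oil, 2.79-fold lower at 48 h. Its 3 other probe sets, all below the filter, had log2 ratios of 0.31, -0.55 and 0.85 at 48 h, on both sides of oil. Unlike the kept one, all 3 were higher at tamoxifen 48 h than at tamoxifen 24 h, by 0.35, 0.76 and 0.29 in log2. Aurka, that kinase, read 82.1 at tamoxifen 24 h, 68.4 at tamoxifen 48 h and 112 on oil (1.36-fold and 1.64-fold lower).

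Plk1, another mitotic kinase, read 9.16 at tamoxifen 24 h, 10.1 at tamoxifen 48 h and 13.97 on oil. Aurkb and its partner survivin, encoded by Birc5, stayed at or under 6.60, and Kif20a, a motor of late mitosis, at or under 1.81, on every probe set and array. Cenpk, a centromere protein, read 10.04 at tamoxifen 24 h, 13.8 at tamoxifen 48 h and 20.9 on oil, 2.08-fold lower at 24 h. A further Cenpk probe set, below the filter, had the same order at 3.17 at tamoxifen 24 h, 5.78 at tamoxifen 48 h and 10.2 on oil. Both put oil highest and tamoxifen 24 h lowest. However, the first lay above the array median on the oil array alone and passed the filter through it. The other read under the floor at tamoxifen 24 h.

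Across the members, probe sets of 1 gene often differed. Of 11 members with 2 or more kept probe sets, 6 had all of them on the same side of oil at 24 h and 9 at 48 h. Pttg1 was the only one of the 11 with every kept probe set past 2-fold at either time. The pooled SD of log2 ratios between kept probe sets of 1 gene, over all genes, was 0.49 at 24 h and 0.41 at 48 h; it covers differences between probe sets and not between mice or arrays. Of the 105 member probe sets, 24 carry the suffix _s_at or _x_at, with which Affymetrix marks probes that can match other transcripts. Among them are the brighter ones of Pttg1 and Mcm2.

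Other genes of the same pathways, from lists written from general knowledge with earlier results of these data known, were read in the same way. Of 44 other replication genes, 30 could be compared, of which 1 was lower and 0 higher at 24 h, and 1 lower and 1 higher at 48 h; their median log2 ratios were -0.12 and 0.12. Pole, a subunit of the leading-strand polymerase, read 9.11 at tamoxifen 24 h, 16.8 at tamoxifen 48 h and 20.6 on oil. Gmnn, encoding geminin, the inhibitor of Cdt1, read 51.1 at tamoxifen 24 h, 46.2 at tamoxifen 48 h and 97.5 on oil (2.11-fold lower at 48 h), and Dut, which removes dUTP, 46.6 at tamoxifen 24 h, 63.4 at tamoxifen 48 h and 31.2 on oil (2.04-fold higher at 48 h). Only 15 of 55 other mitosis genes could be compared, since 39 more had probe sets but none kept. The 15 had medians of -0.16 and 0.05, with 1 lower at 24 h and 0 called at 48 h. That 1 was Hmgb2, a chromatin protein, at 18.6 at tamoxifen 24 h, 27.8 at tamoxifen 48 h and 42.0 on oil, with its other kept probe set also lower (3.22-fold at 24 h).

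The anaphase-promoting complex, which marks securin for destruction, had 13 of 14 genes compared, and none was 2-fold different in any comparison; the medians were 0.11 at 24 h and -0.09 at 48 h. Among 15 of 21 RB, E2F, DREAM and FoxM1 regulators compared, E2f4, an E2F that represses in resting cells, was higher, at 52.8 at tamoxifen 24 h, 92.9 at tamoxifen 48 h and 18.9 on oil (2.79-fold and 4.91-fold). Rbl2, encoding the p130 pocket protein of the DREAM complex, read 136 at tamoxifen 24 h, 90.9 at tamoxifen 48 h and 204 on oil (2.24-fold lower at 48 h), and its other kept probe set was 1.69-fold lower. Lin9, another DREAM subunit, was 2.47-fold lower at 48 h. Rb1 itself read 225 at tamoxifen 24 h, 193 at tamoxifen 48 h and 218 on oil. The medians of this list were -0.13 and -0.14.

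A mixed list joined CDK inhibitors, which brake the same machinery, with p53 targets, not all of which do. It had 17 of 24 genes compared, with 2 higher and 1 lower at 24 h and 1 higher and 5 lower at 48 h. The shares of all genes were 2.35% higher and 2.48% lower at 24 h, and 3.72% and 2.71% at 48 h. Their median log2 ratios were -0.54 and -0.57. Cdkn1a, encoding p21, read 660 at tamoxifen 24 h, 211 at tamoxifen 48 h and 148 on oil, high at 24 h alone, and Cdkn2b, encoding p15, was 2.24-fold and 2.59-fold higher. Cdkn1b, encoding p27, read 227 at tamoxifen 24 h, 169 at tamoxifen 48 h and 352 on oil, and Cdkn1c, encoding p57, 128 at tamoxifen 24 h, 121 at tamoxifen 48 h and 209 on oil. At 48 h the lower ones were Cdkn1b (2.09-fold), Cdkn2d (2.15-fold), Ccng2 (3.84-fold), Gadd45g (3.34-fold) and Trp53inp1 (2.47-fold); Cdkn2d and Trp53inp1 were named after their values were seen. Ccng2, a cyclin G of resting cells, was the lower one at 24 h as well (2.79-fold), with its other kept probe set 2.23-fold and 3.26-fold lower.

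**Figure D5:**
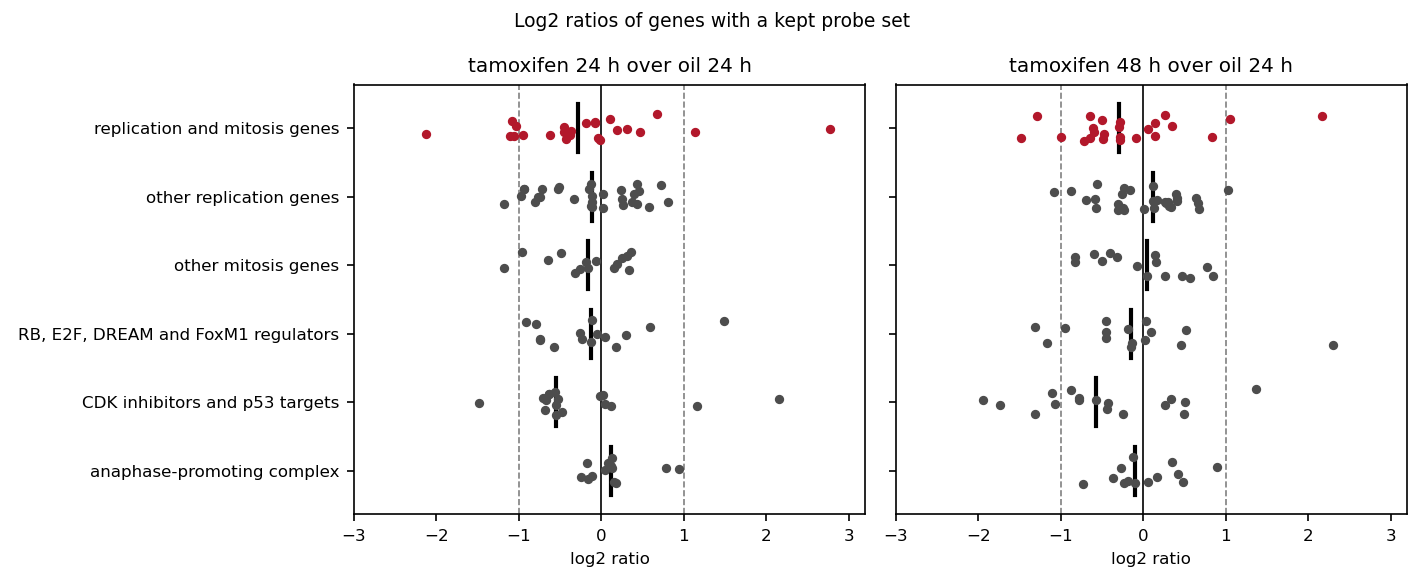
Log2 ratios over the oil array at tamoxifen 24 h (left) and tamoxifen 48 h (right); each point is a gene with a kept probe set, rows are the replication and mitosis genes (red) and 5 other lists, black bars are list medians and dashed lines mark 2-fold. The medians of the red row lie at -0.28 and -0.29 and those of CDK inhibitors and p53 targets at -0.54 and -0.57.

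Markers of cells that could divide in this tissue were read beside the members, as sums over the genes with kept probe sets. The satellite cell and myoblast list (9 of 10 genes) summed to 868 at tamoxifen 24 h, 1229 at tamoxifen 48 h and 1062 on oil. Cdh15 was 2.38-fold and 3.46-fold higher, and Chrna1 (3.00-fold) and Myog (2.02-fold) were higher at 48 h. The list did not move as 1, since 4 of the 9 genes were below oil at each time. Among those were Pax7 (log2 ratios of -0.51 at 24 h and -0.45 at 48 h) and Vcam1 (-0.54 and -0.60), and at 48 h Myf5 (-0.35). The oil sum rested on 1 Sdc4 probe set, which read 44.5 at tamoxifen 24 h, 62.7 at tamoxifen 48 h and 390.3 on oil, while the other Sdc4 probe set was within 1.33-fold of oil. Without Sdc4, an alternative chosen after seeing the data, the sum was 823 at tamoxifen 24 h, 1166 at tamoxifen 48 h and 672 on oil, so the 24 h array then lay above oil. The macrophage list (8 of 8) summed to 2583 at tamoxifen 24 h, 2113 at tamoxifen 48 h and 2476 on oil, with no gene 2-fold different. The endothelial list (6 of 6) summed to 975 at tamoxifen 24 h, 815 at tamoxifen 48 h and 977 on oil, also with none 2-fold different. The fibro-adipogenic list (5 of 6) summed to 10069 at tamoxifen 24 h, 10327 at tamoxifen 48 h and 10977 on oil, with Col1a1 2.26-fold higher at 48 h on 1 of its 2 probe sets and 1.10-fold on the other. The neutrophil list (2 of 6, S100a8 and S100a9) summed to 94.2 at tamoxifen 24 h, 41.1 at tamoxifen 48 h and 146 on oil. No probe set of the lymphocyte list lay above the array median on any array (0 of 6). The part of these cells in the members' values was not tested. The erythroid, Schwann cell and adipocyte lists rested on 1 or 2 genes each.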

How the data were processed

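RNA of 3 pools of gastrocnemius muscle was measured on 1 array each. The authors deposited 1 linear intensity per probe set and array; their probe summary, background correction and scaling are not given in the sources used here. All 3 columns were used. From 45101 probe sets, 64 controls were set aside. Genes came from the platform annotation, with symbols updated through Entrez identifiers to RefSeq (GRCm38.p6); probe sets with several genes (932) were not named, and 9160 were not listed. Probe sets with a mean percentile rank of 0.5 or more were kept (21804), arrays were scaled to 1 median over these (factors 0.944 for tamoxifen 24 h, 1.05 for tamoxifen 48 h and 1.01 for oil), a floor was set at the 25th percentile (4.05) and log2 taken. The highest-ranked kept probe set stood for each gene (11092 genes). The calculation was tested on simulated data.

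No test was made between single arrays, whose number limits the precision. Members and lists were chosen with earlier results of these data known. Values are given for members with a kept probe set, for a fixed set (Pcna, Mki67, Top2a, Cdk1, Ccnd1, Ccnd2, Ccnd3, Cdk4, E2f1, Pttg1, Gas2l3 and Cenpk), for up to 4 genes per list by size of change, and for Cdkn1a, Cdkn1b, Cdkn1c, Rb1 and Ccng2; dim members shown for completeness were added. Scaling, filter, floor and choice of probe set were varied. Python 3.11.15, numpy 2.4.6 and pandas 2.3.3 were used.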

Additional observations from a re-analysis of the deposited data

How the results depend on the processing

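Pttg1 stayed past 2-fold above oil at both times under all 9 alternatives. Its log2 ratios were 2.54 to 3.06 (24 h) and 2.10 to 2.41 (48 h). Ccne2 and Tpx2 stayed 2-fold or more below oil at 48 h under the 8 that could be computed for them. Under the same 8, Tpx2 stayed as far below tamoxifen 24 h at 48 h. Both genes have 1 kept probe set, so the alternatives that change the probe set could not alter their values. The dimmer Tpx2 probe sets did not repeat the fall from 24 h to 48 h. At 24 h, 7 members were called, but 4 with unscaled values, 4 after quantile normalization, 4 on the second probe set and 2 with the filter at mean rank 0.75. At 48 h, 4 were called, but 7 of 43 with no filter, 8 of 38 with the filter at 0.25 and 1 of 10 at 0.75. Between the tamoxifen arrays 2 were called, but 6 of 43 with no filter, 6 of 38 at 0.25, 0 of 10 at 0.75 and 1 on the second probe set. The share of all genes called also moved: with no filter it was 7.40% higher and 4.27% lower at 24 h, 6.12% and 5.03% at 48 h, and 3.75% and 5.55% between the tamoxifen arrays. With the filter at 0.25 it was 6.72% higher and 5.98% lower at 48 h, and 5.05% and 4.55% between the tamoxifen arrays; at 0.75 it was 1.43% and 1.20% at 24 h, 2.78% and 1.64% at 48 h, and 0.873% and 0.414% between them. At 24 h it was 3.27% and 1.86% unscaled, 2.80% and 1.87% after quantile normalization and 2.83% and 3.84% on the second probe set. With no filter at 24 h, 6 were called, of which 4 were higher, and the median of 43 members was 0.05 against 0.19 for all genes. Gas2l3 at 24 h was within 2-fold on its second probe set by mean rank (-0.60). On the second probe set Mcm2 was at -0.10 at 24 h and Sdc4 at 0.42 at 24 h and 0.018 at 48 h, each on the other side of oil. Unscaled, the median of all genes for tamoxifen 48 h over 24 h was -0.18 in place of -0.02. Counted by gene, members above the array median numbered 26 at tamoxifen 24 h, 25 at tamoxifen 48 h and 26 on oil. Member probe sets above the 75th percentile numbered 17 at tamoxifen 24 h, 18 at tamoxifen 48 h and 21 on oil. No share of all genes or probe sets is given beside these counts, so they do not show how the members compare with other genes. No paired analysis was possible because each group had 1 array.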
